A study of Mus musculus with 4 samples.

Results

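A set of 8 B-lineage transcripts was followed in cultures of mouse Th17 cells: Ms4a1, Mzb1, Blk, Rasgrp3 and the immunoglobulin constant region genes Igkc, Ighg1, Ighg2c and Iglc1. They are 8 of 55450 genes in the authors' deposited table, and they were picked by name, with their wide standard errors (SE) already known. Their fold changes, SEs and p-values are therefore descriptions and are not tested here against other genes. The series compared 2 cultures transduced with a PSIN retroviral vector carrying a guide RNA against Adarb1, the gene of the RNA-editing enzyme ADAR2 (sgAdarb1), with 2 cultures given the empty PSIN vector, which carries no guide. All 4 cultures are labelled with a Cas9 transgene, while the design text calls the donor mice, aged 8 to 12 weeks, wild type. Naive CD4+ T cells were stimulated with anti-CD3ε (0.25 µg/mL) and anti-CD28 (1 µg/mL), transduced after 24 h, and kept in IL-6 (20 ng/mL) together with TGF-β (0.3 ng/mL) for 72 h. Each of 2 donor mice gave a culture to each group, according to the series' design text. The treatment tag goes against the title for 2 of the 4 samples, so the groups are named here from the titles. Which libraries the authors put on each side of their fold changes was not checked, and a grouping by that tag would set replicate 2 against replicate 1. Adarb1 mRNA itself lay at 0.11 ± 0.12 (log2, SE) in the authors' deposited table, which checks nothing, since a Cas9 cut need not lower the amount of mRNA.

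B cells recognise antigen through a surface immunoglobulin, a pair of heavy chains and a pair of kappa or lambda light chains, and they secrete the same molecule as antibody after becoming plasma cells. The 8 genes cover that pathway from the cell surface to the secreted product. T helper cells rearrange T cell receptor genes instead and are not a source of antibody. In a bulk culture, fewer B-lineage cells and less RNA per such cell cannot be told apart.

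The immunoglobulin constant genes belong to families of similar sequence, so the coding starts of the family members are shown first, to make clear how far reads of one can be mistaken for another. The stretches are 60 bases from GENCODE release M21 on mm10, read 5′ to 3′ on the minus strand from the start of the constant region, and capitals mark positions at which the family members shown are not all the same. Iglc2 is shown from the second annotated coding base, where it lines up with the others.
Ighg1: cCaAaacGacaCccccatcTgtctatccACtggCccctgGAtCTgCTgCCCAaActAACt
Ighg2c: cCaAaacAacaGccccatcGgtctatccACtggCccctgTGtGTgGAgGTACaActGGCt
Ighg2b: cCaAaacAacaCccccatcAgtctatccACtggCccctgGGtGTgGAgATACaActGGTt
Ighg3: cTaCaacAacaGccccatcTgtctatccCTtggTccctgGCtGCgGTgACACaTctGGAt
Iglc1: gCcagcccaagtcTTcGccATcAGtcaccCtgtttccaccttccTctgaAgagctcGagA
Iglc2: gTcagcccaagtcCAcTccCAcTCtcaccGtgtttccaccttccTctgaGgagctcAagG
Iglc3: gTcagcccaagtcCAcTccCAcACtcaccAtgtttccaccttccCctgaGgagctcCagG
The IgG stretches lie at chr12:113330464-113330523 (Ighg1), chr12:113288873-113288932 (Ighg2c), chr12:113307874-113307933 (Ighg2b) and chr12:113361173-113361232 (Ighg3). The lambda stretches lie at chr16:19062012-19062071 (Iglc1), chr16:19198793-19198852 (Iglc2) and chr16:19065622-19065681 (Iglc3). Among the 4 IgG genes 22 of the 60 positions vary, and among the 3 lambda genes 13 vary. Over the annotated transcripts, 5.49% of the distinct 50-base words of Ighg2c also occur in another gene, all of them in Ighg2b, and 0.393% of those of Ighg1 do. Igkc, Iglc1, Blk and Rasgrp3 share none of their 50-base words with another annotated gene, and no 100-base word of Ighg1, Ighg2c, Igkc or Iglc1 is shared. The read length and the handling of reads with several matches are not stated in the sources used here.

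The genes lie on 7 mouse chromosomes (mm10). Ms4a1 spans chr19:11249675-11266241, Mzb1 chr18:35647267-35649367 and Blk chr14:63372836-63417037, all on the minus strand, while Rasgrp3 lies on the plus strand at chr17:75435896-75529054. Igkc is a single exon at chr6:70726435-70726966 on the plus strand. Ighg1 (chr12:113325240-113330523), Ighg2c (chr12:113285325-113288932) and Iglc1 (chr16:19061618-19062071) are on the minus strand. Mzb1 shares 695 bases of exon with an annotated gene on the same strand, SPATA24, which holds 53.5% of its 50-base words, so its count is uncertain where reads of the pair were split or dropped. Ms4a1, Igkc and Iglc1 each overlap a non-coding gene, with no shared exon bases.

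All 8 genes were detected, at levels that span 212-fold per kilobase of exon. Igkc, the constant region of the kappa light chain, had the highest level, with a mean normalized count of 1523 over the 4 libraries per the authors' deposited table, or 2862 per kb. Ighg1, the constant region of the IgG1 heavy chain, had a mean normalized count of 1738 per the authors' deposited table, or 671 per kb. These means pool both groups, since the table's 4 columns of single libraries match no sample label and stayed unused. Which cultures were high or low in these genes is therefore not given here.

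The other 6 were far lower. Mzb1, an endoplasmic reticulum protein that helps assemble and secrete antibody, had a mean normalized count of 165 per the authors' deposited table, or 136 per kb. Iglc1, a lambda light chain constant region, had a mean normalized count of 54.5 per the authors' deposited table, or 120.0 per kb, and Ighg2c, the constant region of the IgG2c heavy chain of C57BL/6 mice, a mean of 101, or 76.2 per kb. The receptor-proximal genes were lowest. Blk, a Src-family kinase downstream of the B cell receptor, had a mean normalized count of 85.9 per the authors' deposited table, or 31.8 per kb. Ms4a1, which encodes the surface protein CD20, had a mean normalized count of 177 per the authors' deposited table, or 28.6 per kb over all annotated exons and 57.5 per kb over its longest transcript, a difference of annotation that would move it above Blk. Rasgrp3, an exchange factor that activates Ras in B cells, had a mean normalized count of 79.0 per the authors' deposited table, or 13.5 per kb. With no values per culture, the spread behind this order could not be given, so neighbours in it are not shown to differ.

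Most of the B-lineage genes were less abundant than T cell genes. Igkc at 2862 per kb lay within the range of 14 T cell identity genes, which had 751 to 5007 mean normalized counts per kb, and the other 7 lay below it. Trac, the T cell receptor alpha constant region, was the highest of the T cell genes. The 8 genes together made up 3924 mean normalized counts, 0.0222% of the table's sum, against 0.465% for the 14 T cell genes. Il17a and Il17f, the cytokines that define Th17 cells, had means of 1756 and 3739 normalized counts in the authors' deposited table. Il13 and Gata3, genes of another T helper type (Th2) and named after their values were seen, had means of 5434 and 3832 there. Th17 markers were therefore present, but these means do not show that the cultures held Th17 cells alone.

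**Figure D1:**
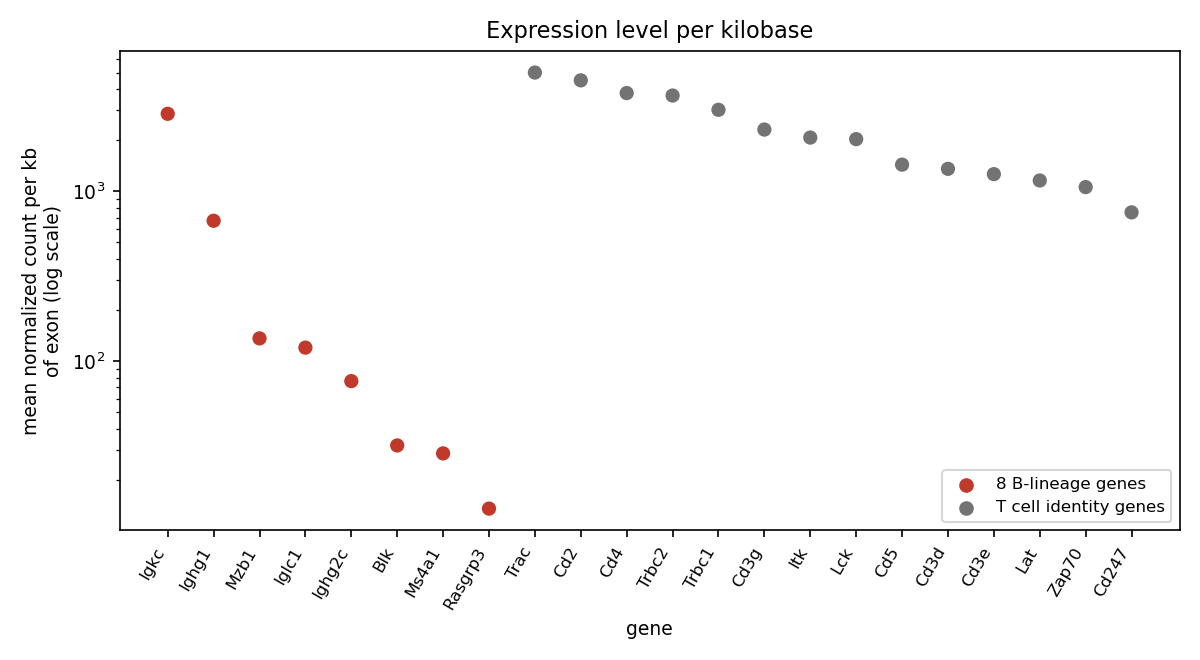
Mean normalized count per kilobase of exon on a log axis (pooled over the 4 libraries) for the 8 B-lineage genes, left, and 14 T cell identity genes, right, each point a gene. Igkc lies among the T cell genes, and the other 7 lie below the lowest of them, Cd247 at 751 per kb.

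No B-lineage gene differed between sgAdarb1 and empty vector cultures by the deposited test. In the authors' deposited table (DESeq2), 0 of the 8 passed at 0.05 after adjustment, where the share over all 29383 genes with a fold change was 0.00%, and 0 lay under 0.05 before adjustment, where that share was 0.208%. Which group is the numerator of the fold changes is not named in the table. They are read here as sgAdarb1 over empty vector, since the design text names the groups in that order, and the signs would all turn under the opposite reading.

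Among the surface, signalling and secretory genes, all 4 log2 fold changes lay below 0, and their intervals reached beyond 7 in both directions. Ms4a1 was at -0.42 ± 3.97 (log2, SE) in the authors' deposited table, and its 95% interval ran from -8.20 to 7.35. Mzb1 was at -0.26 ± 3.97 in the authors' deposited table, with an interval from -8.03 to 7.52. The 2 signalling genes lay nearest to 0: Blk at -0.12 ± 3.97 and Rasgrp3 at -0.12 ± 3.97 in the authors' deposited table. Their intervals ran from -7.90 to 7.65 and from -7.89 to 7.66. A log2 fold change of about 7.78, a 219-fold difference, would have been needed for Ms4a1 to reach an unadjusted p of 0.05 at its SE.

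The immunoglobulin genes fell into 2 levels of precision. Ighg2c was at -0.55 ± 3.97 and Iglc1 at -0.67 ± 3.97 in the authors' deposited table, with intervals from -8.33 to 7.22 and from -8.45 to 7.11. Igkc, the single gene of the 8 with a positive value, was at 0.30 ± 0.99 in the authors' deposited table, with an interval from -1.64 to 2.24. Ighg1 was at -0.42 ± 0.55 in the authors' deposited table, with an interval from -1.49 to 0.65, and had the smallest unadjusted p of the 8, 0.438. The interval of Ighg1 leaves out a 2-fold rise but not a 2-fold fall. Of the 8 genes, 0 had an interval that lies within a log2 change of 1 in both directions, against 87.9% of the 10680 genes whose mean is 50 or more. The 7 negative values of 8 stand beside 49.1% negative values among all genes with a fold change, and each of the 8 intervals spans 0.

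**Figure D2:**
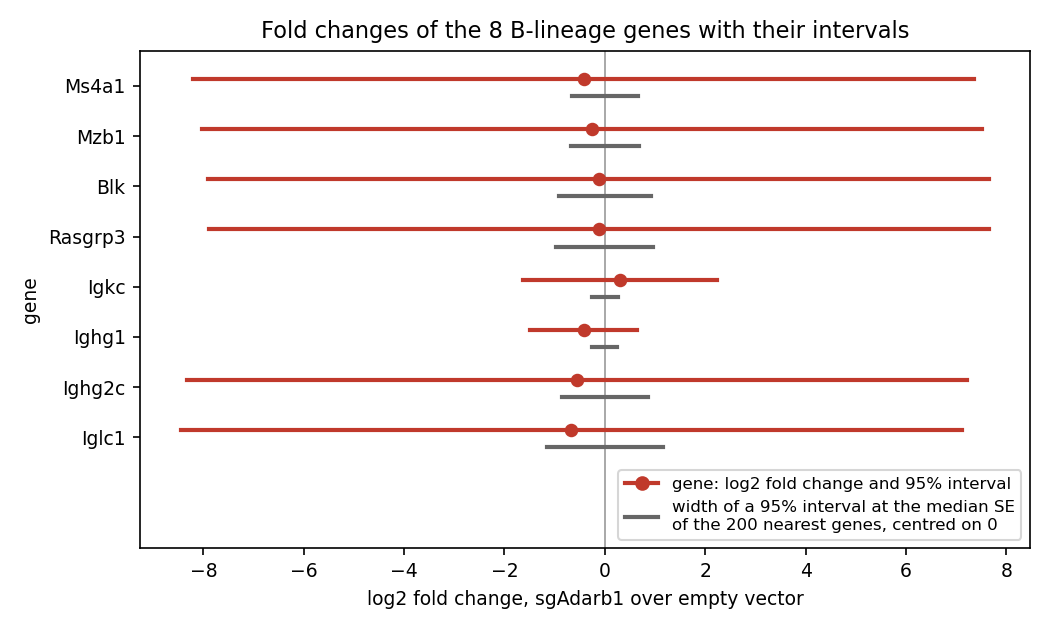
Log2 fold change of sgAdarb1 over empty vector for each of the 8 genes (red point) with its 95% interval (red line), and in grey the width that a 95% interval would have at the median SE of the 200 genes nearest in mean, centred on 0. The red lines of 6 genes reach from about -8 to beyond 7, and those of Igkc and Ighg1 are shorter but still span 0.

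Set beside genes of similar mean, every one of the 8 had a wide SE. Each was compared with the 200 genes nearest to it in mean normalized count, 100 on either side. Ms4a1 had an SE 12.0 times the median of its neighbours, which was 0.33. Mzb1 stood at 11.6 times a median of 0.34, Ighg2c at 9.12 times 0.44, Blk at 8.43 times 0.47 and Rasgrp3 at 8.04 times 0.49. Igkc had an SE 7.46 times its neighbours' median of 0.13, a ratio close to that of Rasgrp3 at a far higher mean. Iglc1 stood at 6.70 times a median of 0.59 and Ighg1, the least extreme, at 4.30 times 0.13. For each of the 8, 0 of the 200 neighbours had a larger SE.

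The comparison is plain against single genes of nearly the same mean. Next to Ms4a1 in mean were Mterf3, Pusl1, Rilpl1 and Fam3a, with SEs of 0.33 each in the authors' deposited table. Around Mzb1, the genes Slfn3, Cfap298, Ccdc84 and Nmral1 had SEs from 0.34 to 0.35 in the authors' deposited table. Blk lay between Smpdl3a and Smug1 on one side and Fzd7 and Slc2a9 on the other, all with an SE of 0.47 in the authors' deposited table. The neighbours of Rasgrp3 were Tcta, Ankrd24, Axin2 and Ankrd39, with SEs from 0.48 to 0.50 in the authors' deposited table.

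Immunoglobulin genes gave the same picture. Igkc lay among Pim2, Fnip1, Gzma and Ahcyl2, with SEs from 0.13 to 0.15 in the authors' deposited table. The neighbours of Ighg1 were Aamp, Otud7b, Akt2 and Impad1, with SEs from 0.13 to 0.14 in the authors' deposited table. Ighg2c lay among Usp2, Zfp760, Slc25a23 and Tmcc2 (0.44 to 0.45), and Iglc1 among Zfp867, Begain, Nos2 and Acad10 (0.58 to 0.63), again in the authors' deposited table. No named neighbour came near the SE of the B-lineage gene it was paired with.

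Over all 14547 genes with a mean of at least 10, SEs followed the mean closely: 95.7% lay between 0.9 and 1.1 times the median of their neighbours. An SE of at least 2 times that median was found for 118 genes, 0.811%, and of at least 4 times for 44 genes, 0.302%. The 8 B-lineage genes are all among those 44, which is what they were picked for. Of the 118, 42 are immunoglobulin genes, and 54 are either that or in the B-lineage lists described below. The 14547 genes hold only 39 variable, 10 constant and 3 joining genes of the immunoglobulins. By this ratio Ms4a1, Mzb1 and Ighg2c ranked 3, 4 and 5 in the table, Blk 7, Rasgrp3 8, Igkc 10, Iglc1 12 and Ighg1 39. All of these except Igkc and Ighg1 had nearly the same SE, 3.97, so their order among themselves is only that of their means.

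**Figure D3:**
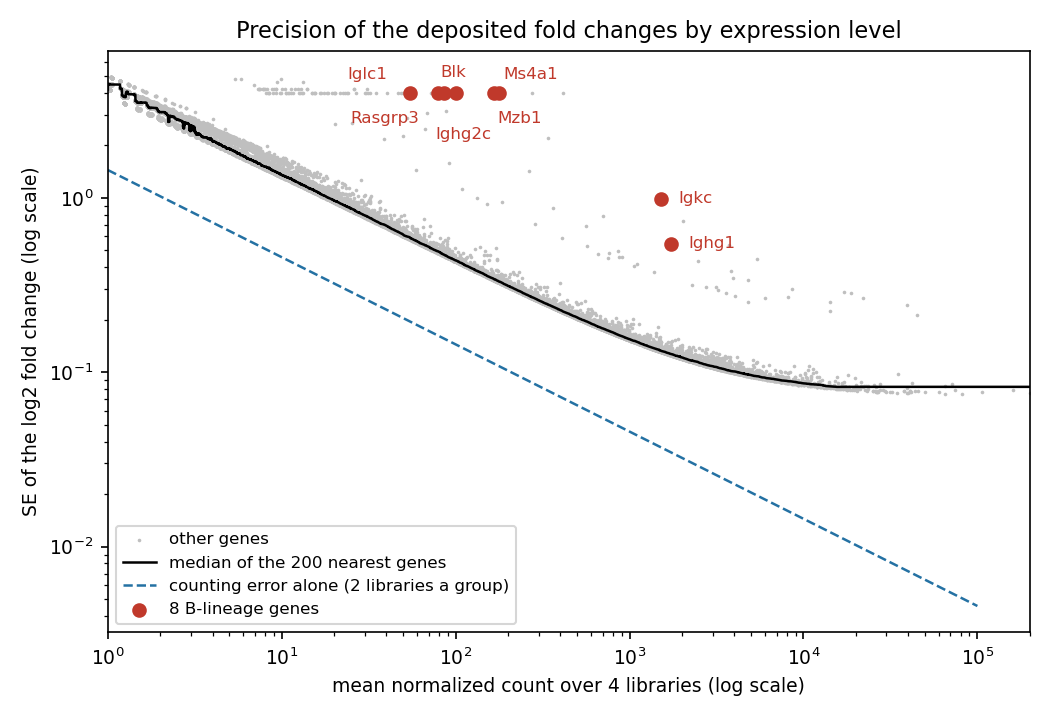
SE of the log2 fold change against mean normalized count, both on log axes, for genes with a mean of at least 1 (grey), with the median of the 200 nearest genes (black), the SE that counting error alone would give with 2 libraries a group (dashed) and the 8 B-lineage genes (red). Of the red points, 6 lie on a flat line at an SE of 3.97 whatever their mean, and Igkc and Ighg1 lie below it but well above the black line.

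Counting error made up little of these SEs. With 2 libraries a group and the deposited mean and fold change, counting alone would give Ms4a1 an SE of 0.11, which is 0.0764% of its variance, against a median of 10.8% for its neighbours. For Igkc counting would give 0.04, or 0.141% of the variance, against 7.79% for its neighbours, and for Ighg1 0.03, or 0.411%, against 7.47%. Iglc1, with the lowest mean, had the largest counting SE of the 8, 0.20, yet this was 0.256% of its variance, against 11.2% for its neighbours. The rest of the variance, beyond counting under these assumptions, came to 7.55 to 7.56 on the natural log scale for the 6 widest genes, to 0.469 for Igkc and to 0.143 for Ighg1.

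The 6 widest genes had almost the same SE although their means differed. In the authors' deposited table it was 3.967 for Ms4a1 and Mzb1, 3.968 for Blk, Rasgrp3 and Ighg2c and 3.969 for Iglc1, over means that span 3.25-fold. These 6 are part of a larger set: 48 genes of mean 10 or more had an SE between 3.9 and 4.0, and all 48 lay between 3.967 and 3.975. Of the 48, 31 are immunoglobulin genes, 25 of them variable segments, where the table holds 39 variable segments of such a mean. A further 11 genes, 9 of them immunoglobulin genes, lay between 4.181 and 4.187, and none lay between 4.0 and 4.1. The bounds of these sets were chosen after the values were seen. The fold changes of the 48 were small beside that SE, from -0.70 to 0.46.

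**Figure D4:**
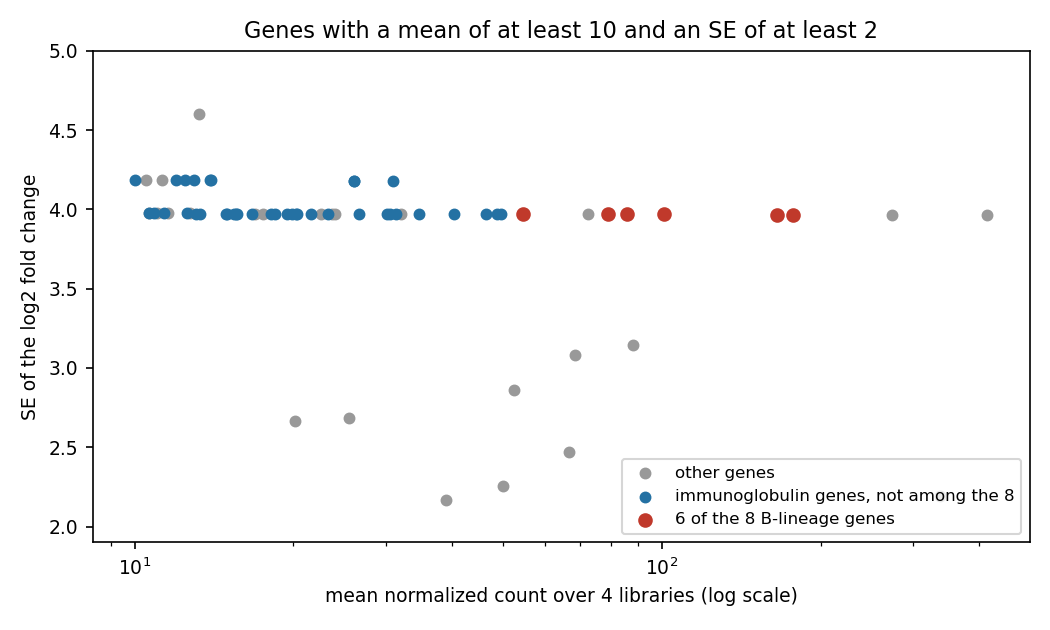
SE of the log2 fold change against mean normalized count (log axis) for genes whose mean is 10 or more and whose SE is 2 or more: the 6 widest B-lineage genes in red, other immunoglobulin genes in blue and other genes in grey. Most points lie on a line near 3.97, a second, shorter line lies near 4.18, and no gene lies between 4.0 and 4.1.

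Other B-lineage genes were not uniformly imprecise. In 6 lists there were 71 B-lineage genes, of which 5 were listed at 0 (Rag1, Rag2, Igll1, Tnfrsf17 and Iglc4) and 57 had a mean of at least 10. Without the 8 genes above, 11 of 49 (22.4%) had an SE at least 2 times that of their neighbours, and the median ratio was 1.14. Among all genes with a mean of at least 10 that share was 0.811%, so the rest of the lists held more wide SEs than the table as a whole. In the authors' deposited table (DESeq2), 0 of these 57 genes passed at 0.05 after adjustment, and 1, Cd24a at 0.21 ± 0.11 with a p of 0.0450, lay under 0.05 before it, where the share among genes of such a mean was 0.412%.

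Some other B-lineage genes had intermediate SEs. Cd22, an inhibitory co-receptor, had an SE 5.22 times that of its neighbours, and on the same scale the transcription factor gene Pax5 stood at 3.67 times, Mef2c at 3.00 times, the receptor subunit gene Cd79b at 2.63 times and the plasma cell regulator gene Prdm1 at 2.62 times. These fell between the 6 widest genes and the bulk of the table. The choice by name has no numeric threshold, and Cd22, which was not among the genes chosen, lay farther out than Ighg1, which was.

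Smaller ratios were found in the same pathway. Ebf1, a factor that specifies the B lineage, was at -0.07 ± 0.18 in the authors' deposited table, 1.14 times its neighbours' SE. Pou2af1, a B cell coactivator, was at 0.10 ± 0.19 in the authors' deposited table, at 1.25 times. Cd79a, the partner of Cd79b in the receptor, was at -0.13 ± 0.51 in the authors' deposited table, at 1.32 times, so the subunits of one receptor differed in ratio. Blnk, an adaptor of that receptor, was at -0.03 ± 0.51 in the authors' deposited table, at 1.52 times. Ratios near 1 were found for some B cell surface genes and for some genes that T cells also use. Among the surface genes, Fcrl1, an Fc receptor-like protein gene, stood at 1.02 times, Tnfrsf13b, the gene of the BAFF and APRIL receptor TACI, at 1.03 times, and Fcmr, the IgM Fc receptor gene, and Cd40, the co-stimulatory receptor gene, both at 0.99 times. Of the genes that T cells also use, Irf4 was at 0.01 ± 0.08 and Xbp1 at 0.10 ± 0.11 in the authors' deposited table, both with a ratio of 0.98, while Prdm1, named above, was wider at 2.62 times.

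Among the 13 immunoglobulin constant genes, 10 had a mean of at least 10. Of these, 7 (70.0%) had a ratio of at least 2, against 0.811% of all genes of such a mean. Ighm, the constant region of IgM, had a mean of 1308 and lay at -0.12 ± 0.16 in the authors' deposited table, 1.16 times its neighbours' SE. Ighm is close to Ighg1 and Igkc in mean, and their SEs were 0.55 and 0.99. Iglc2 and Iglc3, the relatives of Iglc1, were at -0.11 ± 3.97 and -0.29 ± 3.97 in the authors' deposited table, and Ighe, the IgE constant region, at -0.33 ± 3.97. The IgG genes Ighg3 and Ighg2b, at -0.80 ± 0.94 and 0.42 ± 1.61 in the authors' deposited table, had ratios of 1.31 and 1.22. Only 2 neighbours of Ighg3 and 6 neighbours of Ighg2b had a larger SE. The 4 IgG genes thus all had a larger SE than most genes of like mean. They differed in degree, with Ighg1 and Ighg2c above a ratio of 2 and Ighg3 and Ighg2b below it. Ighd and Igha had means of 7.45 and 7.71 in the authors' deposited table, with ratios of 1.16 and 1.21.

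Variable segments of mean 10 or more had a median SE of 3.97, near that of the lambda genes and above the 0.99 of Igkc. Of 218 annotated immunoglobulin variable genes, 39 had a mean of at least 10, and their median ratio was 3.62. An SE at least 2 times that of their neighbours was found for 33 of these (84.6%), against 0.811% of all genes of such a mean. Kappa segments supplied 24 of 27 and heavy chain segments 8 of 11. The 71 T cell receptor variable genes with such a mean gave 0 with a ratio of 2, and their median ratio was 0.99. Both kinds are short, rearranging gene segments. Among those counted, means reached 46.4 for the immunoglobulin segments and 517 for the T cell receptor segments. The ratio compares each segment with genes of its own mean, and why the kinds differ was not tested.

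**Figure D5:**
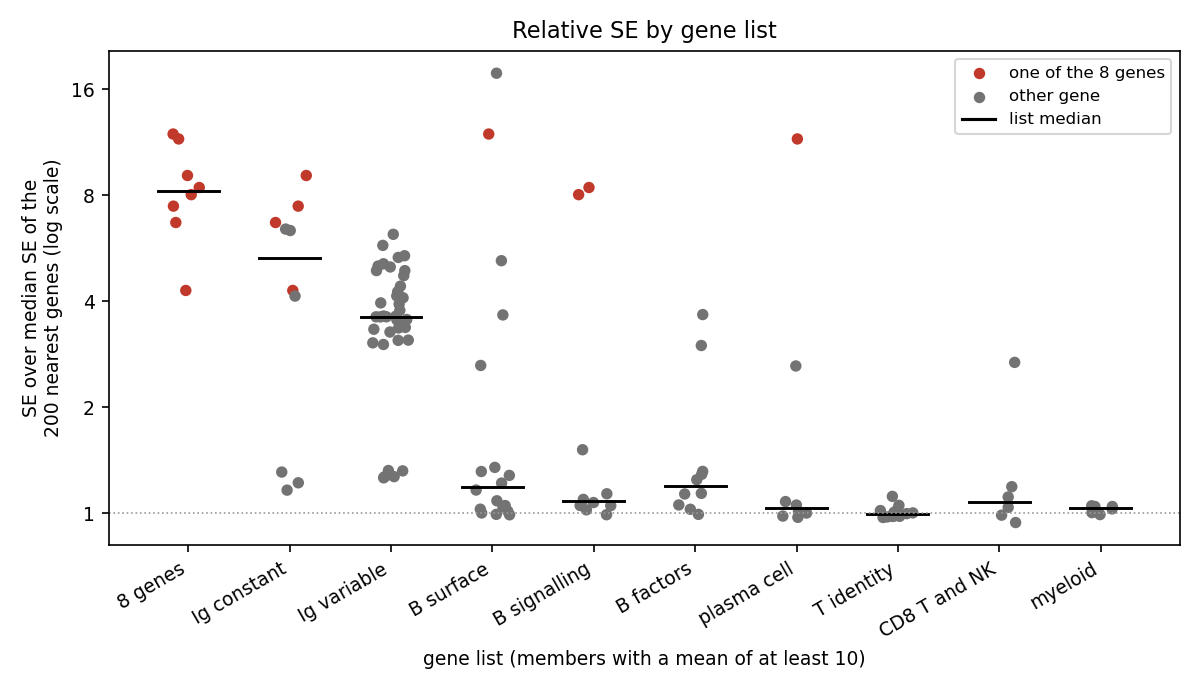
SE divided by the median SE of the 200 genes nearest in mean, on a log axis, for genes with a mean of at least 10 in each list, with the 8 B-lineage genes in red and list medians as black bars. The constant and variable immunoglobulin lists have medians of 5.33 and 3.62. The B surface, signalling and factor lists have medians of 1.19, 1.09 and 1.19, with single genes far above. The T cell identity genes stay within 0.97 to 1.12.

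The relatives of Blk, Rasgrp3 and Ms4a1 had far smaller ratios. Of the 8 Src-family kinase genes, 7 had a mean of at least 10, and Blk was the single one with a ratio above 2; Lck and Fyn, the kinases of T cell receptor signalling, were at 0.02 ± 0.09 and -0.03 ± 0.11 in the authors' deposited table, with ratios of 0.98 and 0.99. Rasgrp1, the exchange factor that T cells use, had a mean of 1724 and lay at 0.04 ± 0.13 in the authors' deposited table. Rasgrp3 and Rasgrp2 had nearly the same mean in the authors' deposited table, 79.0 and 79.5 normalized counts, and their SEs were 3.97 for Rasgrp3 and 0.51 for Rasgrp2. In the Ms4a family, 6 relatives of Ms4a1 had a mean of at least 10, among them Ms4a4b at -0.17 ± 0.16 and Ms4a6b at -0.04 ± 0.13 in the authors' deposited table, and their ratios ran from 0.98 to 1.19.

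Some genes of other cell types also had wide SEs. The 6 myeloid markers with a mean of at least 10 had ratios from 0.99 to 1.05, but under that mean the neutrophil genes S100a9 and S100a8, with means of 9.86 and 5.40 in the authors' deposited table, had ratios of 3.51 and 2.62. Of the 6 CD8 T and NK markers with such a mean, 1 had a ratio above 2, Cd8a at 0.74 ± 0.71 in the authors' deposited table, with a ratio of 2.69. Outside all lists, and named after their values were seen, the platelet genes Thbs1, Pf4 and Ppbp stood at 8.95, 6.77 and 5.82 times their neighbours' SE. Some genes of T cell effector products were wide too, named likewise after their values were seen. The granzyme gene Gzmc stood at 6.06 times, and the cytokine genes Il17f at 5.22 times, Il13 at 4.68 times and Il22 at 3.47 times, while Gata3, a T helper transcription factor gene, stood at 3.76 times. Others were not wide: in the CD8 T and NK list, the granzyme gene Gzmb stood at 0.94 times and the perforin gene Prf1 at 1.19 times. Gzmc, Il17f and Il13 thus lay above Ighg1 at 4.30 times, and a wide SE was not particular to B-lineage genes. How any of these markers differed between single cultures, and the part of such differences in the wide SEs, was not tested.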

How the data were processed

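Per the submitters' processing notes, reads were handled with STAR 2.6.1a, featureCounts and DESeq2 1.18.1 on mm10; the model formula, annotation and strand setting are not stated in the sources used here. Per the file headers, the authors deposited for each gene a mean signal (the mean of counts over DESeq2 size factors), a log2 fold change with its SE, a Wald score, and a p-value with its adjusted p. The score equalled fold change over SE, and the adjusted p was that of Benjamini-Hochberg across the 29383 genes that have a fold change. The 4 columns of values per library match no label and were not used, so depth per library is unknown here. The tool the authors used by default draws each gene's dispersion towards a trend over the mean and lets a gene far above it keep its own estimate; dispersions were not used here. p-values measure the spread between these cultures alone.

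All 55450 identifiers matched GENCODE M21. Computed here, in Python 3.11.15 with numpy 2.4.6 and pandas 2.3.3, were 95% normal intervals, the ratio of each SE to the median of the 200 nearest genes, levels per kb of merged exons, and the counting part of each variance, which assumes 2 libraries of equal size a group and no donor term. The ratio and variance steps were run on simulated SEs built from the same variance formula. That checks the code and not how well the split describes the deposited SEs. The members and lists were chosen with earlier results of these data known. Named were the 8 genes, other list genes with a mean of at least 50, constant region genes above 0 and the 4 nearest named neighbours of each of the 8. Cd8a and the Il17 genes followed from that rule or from the check of cell type, and genes outside it were chosen after their values were seen. Alternatives changed the neighbours, the adjustment and the exon length. Some genes that the naming rule covers are not reported here.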

Additional observations from a re-analysis of the deposited data

How the results depend on the processing

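No paired analysis was possible because no per-library column could be tied to a sample; refits with edgeR or DESeq2, other size factors, groups from the treatment tag and omission of a culture were likewise not run. All 8 genes kept an SE at least 2 times that of their neighbours with 100 or 1000 neighbours, protein-coding neighbours alone, neighbours within 10% of the mean, or genes with a mean of at least 10 alone; the median ratio was 8.23 and ran from 8.18 to 8.28 in these settings. With variance beyond counting in place of the SE the median ratio was 76.2, which follows from comparing variances. The limit to genes with a mean of at least 10 could change nothing, since all neighbours of the 8 had means above that. A ratio of at least 1.5 or 4, chosen after the data were seen, also held for all 8. It could not fail, since the smallest of the 8 ratios was 4.30. Against 0 genes in the whole table, 3 and 2 passed when p-values were adjusted among genes of mean 10 or more, or 50 or more, a smaller number of tests, and 3 at an adjusted p of 0.1; the 8 genes gave 0 in each (DESeq2's deposited p; 0 also at an unadjusted p below 0.05). The median excess variance was the same with equal group means. Only the level of Ms4a1 moved by over 1.5 times with its longest transcript. Depths per library were not used here, and the deposited SEs set what could be detected.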
